A study of Homo sapiens with 5 samples.

Results

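The AP-1 transcription factors, ATF3 and a pair of related factors were examined in RPE-1 cells, a human line derived from retinal pigment epithelium and immortalized with telomerase, after knock-down of FAM53C. The group was chosen by gene symbol and holds 10 of the 64252 genes in the count table: FOS, FOSB, FOSL1 and FOSL2 of the FOS family, JUN, JUNB and JUND of the JUN family, and ATF3, BATF3 and MAFF. All 10 had enough counts to be among the 15341 genes tested. The cells had been transfected with a non-targeting control siRNA (siCtrl, 3 libraries) or with a pool of siRNAs against FAM53C (siFAM53C, 2 libraries), each at 5 µM, and polyA RNA was sequenced 48 hr later. All libraries came from the same line and carry the same siRNA dose and time, and nothing in the labels says that the libraries of a condition came from separate cultures, so that p-values measure the spread between these libraries only. The methods describe duplicate samples, whereas the table holds 3 siCtrl libraries, and which of them is additional is not known. All were used, and without siCtrl replicate 3 the genes called lower and higher numbered 886 and 414, against 533 and 75 with all libraries. A pool of siRNAs was used against FAM53C, so effects of its single siRNAs cannot be told apart from those of FAM53C loss.

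AP-1 is not a single protein but a family of dimers. JUN proteins pair with each other or with FOS proteins through a leucine zipper, and the dimer binds DNA at the sequence TGANTCA, known as the TPA response element (TRE), or at the cyclic AMP response element (CRE). FOS, FOSB, JUNB and ATF3 are classic immediate early genes, whose mRNAs appear within minutes of serum, growth factors or stress and decay quickly, whereas FOSL1 (the protein FRA-1) and FOSL2 (FRA-2) come later and stay on in growing cells. JUND is expressed in most resting and growing cells. ATF3 is a stress-induced factor that pairs with JUN proteins, BATF3 is a short JUN partner without a transactivation domain, and MAFF is a small MAF protein that likewise lacks one.

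FAM53C itself, the targeted gene, had 60.9, 59.7 and 57.6 CPM (counts scaled to a common library size) under siCtrl against 14.2 and 22.3 CPM under siFAM53C, and fell by 1.71 ± 0.19 (log2 scale, SE; edgeR adjusted p = 0.003625). Here and below, an edgeR adjusted p is that of its quasi-likelihood test after Benjamini-Hochberg correction over all genes tested. The libraries hold from 19260124 to 25615415 counts on genes. The first principal component (39.8% of the variance) did not separate the conditions. The scores of siCtrl were -31.5, -47.4 and 33.7 and those of siFAM53C were 0.264 and 44.9. siCtrl replicate 3 and siFAM53C replicate 2 had the highest scores and were taken as a side. siFAM53C replicate 1 lay between the controls, so placing it with siCtrl replicates 1 and 2 was a choice. Within each side the siFAM53C library had the higher score. Differences are therefore also given within these sides, as siFAM53C replicate 1 minus the mean of siCtrl replicates 1 and 2 and as siFAM53C replicate 2 minus siCtrl replicate 3. Of 12 markers of retinal pigment epithelium and epithelia, 7 passed the filter on low counts, KRT8 (236 to 328 CPM), KRT18 (148 to 182 CPM), MITF and OTX2 among them. The mature pigment epithelium markers were near 0 or absent: RPE65 had no counts, RLBP1 and TYR had at most 1 and 2, and BEST1 was at most 0.786 CPM, and the epithelial CDH1 and EPCAM had at most 3 and 4 counts. Of 14 markers of blood, endothelial, neural and other cells, 1 (PECAM1, at most 0.849 CPM) passed the filter on low counts.

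Levels were first compared between the genes, as CPM per kb of annotated exon sequence. This length joins the exons of all annotated transcripts of a gene, whichever of them the cells express, so ratios between genes depend on it. In siCtrl cells the pool of these transcripts was dominated by FOSL1, with 296 ± 26.6 CPM per kb (SD, n = 3), 4.06 times the level of JUN, the next in order (72.9, range 60.7 to 89.6). JUND followed with 49.0 ± 7.59 and FOSL2 with 41.1 ± 8.46 CPM per kb. The ranges of JUN and JUND did not overlap, and those of JUND and FOSL2 did. A further drop of 4.30 times separated FOSL2 from JUNB (9.54 ± 2.69 CPM per kb). JUNB, FOS (6.96), BATF3 (4.70), MAFF (3.91) and FOSB (2.67) then formed a run in which each gene's range overlapped that of the next. ATF3 was the lowest at 0.785 ± 0.319 CPM per kb. In CPM without division by length FOSL1 also led in siCtrl cells (mean 559), but FOSL2 (294) came before JUN (264). In siFAM53C cells FOSL1 again led, with 425 ± 7.67 CPM per kb (SD, n = 2), 6.53 times the level of JUN, and ATF3 was again lowest (1.69 ± 1.18).

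The gene models differ in a way that follows the families. JUN (chromosome 1 of GRCh38, 58776845 to 58784048, minus strand), JUNB (chromosome 19, 12791486 to 12793315, plus strand) and JUND (chromosome 19, 18279694 to 18281622, minus strand) each have 1 exon in their canonical transcript. FOS (chromosome 14, 75278826 to 75282230, plus strand), FOSB (chromosome 19, 45467995 to 45475179, plus strand), FOSL1 (chromosome 11, 65892049 to 65900573, minus strand) and FOSL2 (chromosome 2, 28392448 to 28417317, plus strand) each have 4. ATF3 (chromosome 1, 212565334 to 212620777, plus strand) has 4 exons, and BATF3 (chromosome 1, 212686417 to 212699840, minus strand) and MAFF (chromosome 22, 38200767 to 38216507, plus strand) have 3 each. Of the exon bases of JUNB, 259 are shared with HOOK2 on the opposite strand, and 326 of those of MAFF with PLA2G6, so their counts are less certain if the counting did not use strand.

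**Figure D1:**
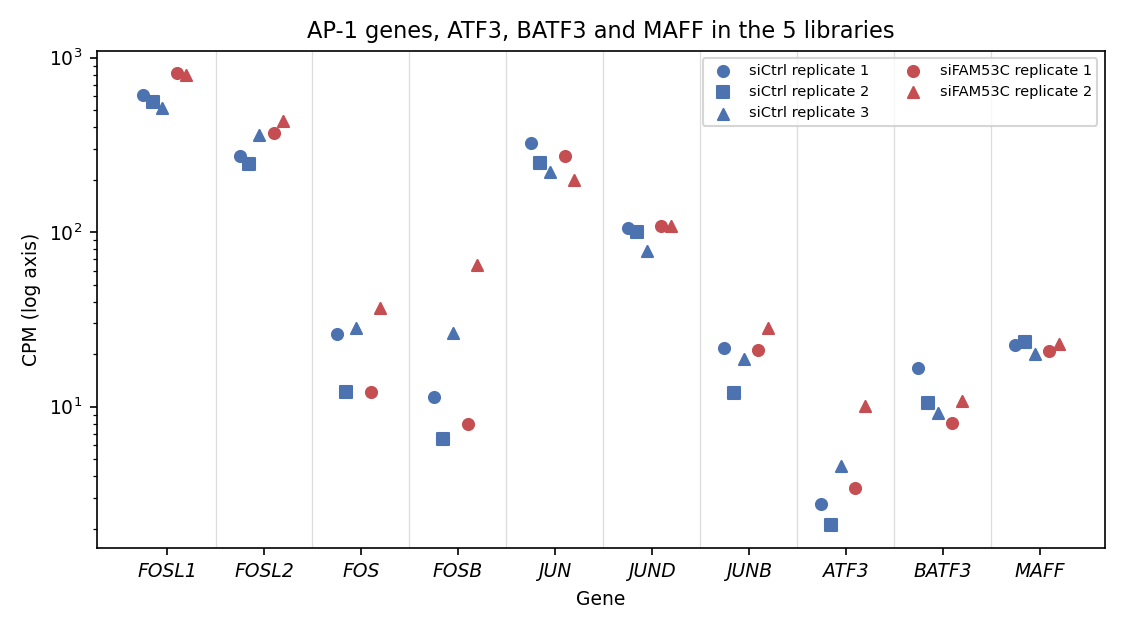
CPM of each of the 10 genes (log axis) in each of the 5 libraries, blue for siCtrl and red for siFAM53C, with a marker shape per replicate. For FOSL1, FOSL2 and JUND both siFAM53C libraries lie above every siCtrl library, and FOSB spans from 6.54 to 64.5 CPM.

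The comparison between conditions asked which of these factors differ when FAM53C is knocked down. None of the 10 passed the threshold of 0.05 on the edgeR adjusted p: 0 were lower, where 3.47% of all genes tested were, and 0 were higher, where 0.489% were. At an unadjusted p under 0.05, 2 were higher (FOSL1 and FOSL2) and 0 lower, beside 6.61% of all genes tested higher and 10.5% lower at that level. DESeq2 called 1 of them higher, FOSL1, beside 254 higher of the 13181 genes that it gave an adjusted p. None was called by limma-voom, beside 74 higher of 15341. Of the 10 genes, 7 had a log2 fold change above 0, with a median of 0.33, beside 51.8% above 0 and a median of 0.016 over all genes tested. Both siFAM53C libraries lay above every siCtrl library in 3 of the 10 genes, against 16.7% of all genes tested, and below every siCtrl library in 0, against 18.8%. Across all genes tested, 533 were lower and 75 higher, 87.7% of the differing genes being lower, and 77.4% (415 lower, 121 higher) when only library totals set the scale.

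FOSL1 had the smallest p of the group. Its level was 612, 554 and 512 CPM in the siCtrl libraries and 813 and 793 CPM in the siFAM53C libraries. The conditions do not overlap, and the gap between them is wider than the range within either. The log2 fold change was 0.52 (SE 0.12; 1.44-fold, edgeR adjusted p = 0.05863), just outside the threshold. Within the sides of the library split it was 0.48 and 0.63. The adjusted p fell under 0.05 in 7 of 15 alternative settings, and the log2 fold change stayed between 0.46 and 0.59. The edgeR adjusted p was 0.0001586 with a term for the library split and 0.248 without siCtrl replicate 2. Those 7 settings were the ones with more calls over the whole table. They called from 121 to 1037 genes higher, and the others from 6 to 83, against 75 with the main settings. Without siCtrl replicate 3, FOSL1 passed (edgeR adjusted p = 0.02814), and it did not pass with any other single library left out.

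FOSL2 showed a smaller separation. It had 274, 246 and 362 CPM in the siCtrl libraries and 368 and 435 CPM in the siFAM53C libraries. Both siFAM53C libraries are above the controls, but siFAM53C replicate 1 is only just above siCtrl replicate 3. On the log2 scale the fold change was 0.45 (SE 0.18; edgeR adjusted p = 0.2488), and 0.50 and 0.27 within the sides. With a term for the library split, a split that was found in these data, both FOSL1 (0.54, adjusted p = 0.0001586) and FOSL2 (0.40, adjusted p = 0.003311) passed edgeR's test. Without siCtrl replicate 3, FOSL2 passed as well (log2 fold change 0.63, edgeR adjusted p = 0.01055). Calls rose over the whole table in both settings. The split term gave 1636 genes lower and 1037 higher of 15341. Leaving out siCtrl replicate 3 gave 886 and 414 of 14986, against 533 and 75 with the main settings.

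The promoter entry of FOSL2 in RefSeq carries a TRE just inside the start of transcription. It is shown because it is the only TRE in the promoter entries of these genes, and the sequence is the motif that AP-1 dimers themselves bind. Capitals mark the motif, whose first base is at position 5 counted from the first transcribed base, at chr2:28392850-28392875 of GRCh38.p14 on the plus strand.
FOSL2: gtgccattgtagTGACTCAtctcggg
Promoter entries, each of 250 bases before and 50 bases from the start onward, matched 8 of the 10 genes, with 10 entries because ATF3 and MAFF have 2 each. FOSL1 and BATF3 had no entry. TGANTCA, searched on both strands, occurs in 7.71% of the 35116 promoter entries of the table.

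FOS, FOSB and ATF3 varied most between libraries, and in each of them the conditions overlapped. FOSB, a close relative of FOS, had 11.4, 6.54 and 26.5 CPM in the siCtrl libraries and 7.90 and 64.5 CPM in the siFAM53C libraries. The highest value in each condition was that of the library with the higher score on the first principal component, and siFAM53C replicate 1 lay below 2 of the controls. The 2 siFAM53C libraries differed by 3.02 on the log2 scale, a larger difference than in all but 0.456% of the genes tested. The log2 fold change was 1.29 (SE 1.09; edgeR adjusted p = 0.6521), with -0.13 and 1.28 within the sides. Leaving out siFAM53C replicate 2 gave -0.91, and leaving out siFAM53C replicate 1 gave 2.12.

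FOS, the best known partner of JUN, had 26.2, 12.2 and 28.1 CPM in the siCtrl libraries and 12.2 and 36.6 CPM in the siFAM53C libraries. One siFAM53C library was level with the lowest control and the other was the highest of all. FOS had a log2 fold change of 0.13 (SE 0.59; edgeR adjusted p = 0.9452), with -0.56 and 0.38 within the sides, and -0.87 without siFAM53C replicate 2.

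ATF3 had counts of 65, 40 and 87 under siCtrl and of 90 and 238 under siFAM53C, the fewest of the group in every library. In CPM this is 2.76, 2.09 and 4.56 against 3.40 and 10.1. The highest library was siFAM53C replicate 2, and siFAM53C replicate 1 fell within the range of the controls. For ATF3 the log2 fold change was 1.10 (SE 0.51; edgeR adjusted p = 0.3283), with 0.49 and 1.13 within the sides, so that it was above 0 on both. Without siFAM53C replicate 2 it was 0.12.

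For FOS, FOSB and ATF3, siCtrl replicate 3 exceeded the other controls, by 0.64, 1.61 and 0.90 on the log2 scale over the mean of siCtrl replicates 1 and 2. In FOS, however, siCtrl replicates 1 and 3 were close (26.2 and 28.1 CPM), and siCtrl replicate 2 was the low one (12.2 CPM). The part of the library split in the values of these genes was not tested. By the likeness of centred log2 CPM over the 5 libraries, the genes nearest to FOSB among 9300 others were DUSP10, a phosphatase of the JNK and p38 kinases (root mean square difference 0.425), DMBT1, a secreted scavenger receptor (0.479), and MUC1, a membrane mucin (0.503). DUSP10 had 7.13, 5.18 and 14.8 CPM in the siCtrl libraries and 7.22 and 25.2 CPM in the siFAM53C libraries, and its log2 fold change was 0.84 (edgeR adjusted p = 0.6194).

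**Figure D2:**
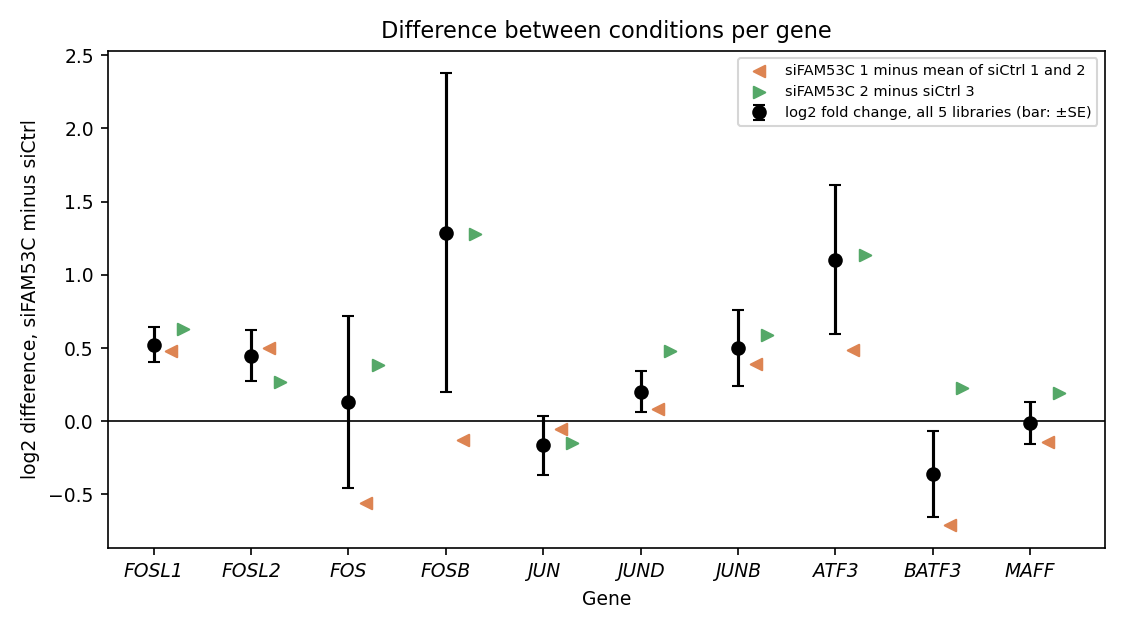
Log2 difference of siFAM53C minus siCtrl per gene: black points with bars are the log2 fold change ± SE over all 5 libraries, and triangles are the differences within each side of the library split. FOSL1 (0.48 and 0.63), FOSL2, JUNB, JUND and ATF3 lie above 0 in both triangles, and those of FOS, FOSB, BATF3 and MAFF fall on opposite sides of 0.

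The core promoters of FOS, FOSB and JUNB, which are among the immediate early genes named above, are shown because they share a layout. In each, a TATA box (TATAAA, searched on the transcript strand) starts between positions -33 and -30. TATAAA occurs in 7.33% of all promoter entries. In FOS and FOSB the core of a CRE, TGACG, starts at positions -64 and -60. Both were read on the plus strand of GRCh38.p14, FOS at chr14:75278748-75278807, FOSB at chr19:45467916-45467975 and JUNB at chr19:12791406-12791465, and each stretch runs from position -80 to -21. Capitals mark this CRE core and the TATA box of FOS and FOSB, and the CCAAT box and TATA box of JUNB.
FOS: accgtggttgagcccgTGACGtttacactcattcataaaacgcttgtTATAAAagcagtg
FOSB: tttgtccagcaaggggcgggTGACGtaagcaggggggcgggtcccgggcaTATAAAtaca
JUNB: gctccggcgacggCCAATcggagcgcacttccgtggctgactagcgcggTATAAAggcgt
TGACG on either strand occurs in 24.6% of all promoter entries and CCAAT in 34.6%, so these matches are common. Of the 10 entries of this group, 7 hold TGACG, counting those within a whole CRE.

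JUN and ATF3 are shown together because both hold TGACATCA, a variant of the CRE known from the JUN promoter, where JUN and ATF2 dimers bind. It occurs on either strand in 2.61% of all promoter entries and starts at position -67 in JUN and -123 in the first entry of ATF3. JUN was read at chr1:58784088-58784147 on the minus strand, with its CCAAT box also in capitals, and ATF3 at chr1:212565257-212565316 on the plus strand of GRCh38.p14.
JUN: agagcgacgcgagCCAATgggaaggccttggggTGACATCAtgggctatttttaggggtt
ATF3: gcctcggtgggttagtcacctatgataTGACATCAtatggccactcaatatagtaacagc
Among the 5 libraries ATF3 was highest in siFAM53C replicate 2, where JUN was lowest, and the part of the site in either was not tested.

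JUN, the founding member of the family, had 325, 248 and 220 CPM in the siCtrl libraries and 273 and 199 CPM in the siFAM53C libraries. The conditions overlap, and on each side of the library split the siFAM53C library was slightly below the controls (-0.054 and -0.15). JUN had a log2 fold change of -0.16 (SE 0.20; edgeR adjusted p = 0.7611).

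JUNB, which often opposes JUN in growth control, had 21.6, 12.0 and 18.8 CPM in the siCtrl libraries and 21.2 and 28.3 CPM in the siFAM53C libraries. Its conditions overlap by a single control, siCtrl replicate 1. The log2 fold change was 0.50 (SE 0.26; edgeR adjusted p = 0.3824), with 0.39 and 0.59 within the sides, and it was above 0 in all 15 alternatives (0.28 to 0.69).

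JUND had 106, 99.9 and 78.0 CPM in the siCtrl libraries and 109 CPM in each of the siFAM53C libraries. The siFAM53C libraries were above all controls, but barely above siCtrl replicate 1. JUND had a log2 fold change of 0.20 (SE 0.14; edgeR adjusted p = 0.5385), with 0.081 and 0.48 within the sides.

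BATF3 had 16.6, 10.5 and 9.22 CPM in the siCtrl libraries and 8.01 and 10.8 CPM in the siFAM53C libraries. Its values overlap, and the sides gave -0.71 and 0.23. MAFF was the steadiest gene of the group, with 22.5, 23.4 and 20.0 CPM in the siCtrl libraries and 20.7 and 22.8 CPM in the siFAM53C libraries. Its range of 0.231 on the log2 scale was narrower than that of 93% of the genes tested, where the median range was 0.666. The log2 fold changes were -0.36 (SE 0.29) for BATF3 and -0.011 (SE 0.15) for MAFF, with edgeR adjusted p of 0.6092 and 0.9834.

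JUND and MAFF are the genes of the group whose promoter entry holds a whole CRE, TGACGTCA, and are shown for that reason. It occurs in 1.85% of all promoter entries and starts at position -200 in JUND (chr19:18281803-18281842, minus strand) and -54 in MAFF (chr22:38201920-38201959, plus strand).
JUND: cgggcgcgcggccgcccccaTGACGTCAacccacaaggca
MAFF: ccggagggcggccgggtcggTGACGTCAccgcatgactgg

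Rapid decay of FOS mRNA is known to depend on AU-rich stretches of its 3' UTR, so these were searched in the canonical GENCODE transcripts, with T for U. The pentamer ATTTA was present in all 10 genes, from 1 copy in FOSL1, JUND and BATF3 to 5 in FOS and 9 in FOSL2, beside 74.2% of the 12072 3' UTRs of tested genes. The 3' UTRs differ in length, with 837, 747 and 374 bases in FOSL1, JUND and BATF3, 806 in FOS and 4869 in FOSL2. The copy numbers are therefore not densities. The nonamer TTATTTATT was found in 3 of the 10, FOS, FOSL2 and MAFF, beside 9.9% of all. Its site in FOS lies at chr14:75282060-75282088 and that in FOSL2 at chr2:28416355-28416383, and the 2 sites in MAFF at chr22:38215914-38215942 and chr22:38216403-38216431, all on the plus strand of GRCh38 and with the nonamer in capitals.
FOS: tgtttttaatTTATTTATTaagatggatt
FOSL2: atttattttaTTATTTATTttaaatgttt
MAFF, first site: tccccactgtTTATTTATTgcacggatct
MAFF, second site: ctcctagaatTTATTTATTtcctgactta
These 3 genes include the steadiest of the group and one of the most variable.

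The make-up of the transcript pool was then compared, as each gene's share of the summed CPM per kb of the 10 genes. The sum was 540, 468 and 455 CPM per kb in the siCtrl libraries and 639 and 642 CPM per kb in the siFAM53C libraries, without overlap. FOSL1 made up 60.0, 62.6 and 59.6% of it in siCtrl and 67.5 and 65.5% in siFAM53C. The JUN family made up 28.9, 27.1 and 24.5% in siCtrl and 22.5 and 19.8% in siFAM53C, and JUN alone 16.6, 14.6 and 13.3% against 11.8 and 8.55%. As a level, the JUN family summed to 156, 127 and 111 CPM per kb in siCtrl and 143 and 127 in siFAM53C, which overlap, and the FOS family to 373, 332 and 335 against 488 and 504, which do not. Most of the FOS family level was FOSL1, with 324, 293 and 271 CPM per kb in siCtrl and 431 and 420 in siFAM53C. FOSL2 did not overlap either, but FOS and FOSB did, so the sum does not describe every member of the family. The difference in the share of the JUN family was -5.72 percentage points, from 26.8 ± 2.24% (SD, n = 3) to 21.1 ± 1.91% (SD, n = 2). For the sum and for the shares of FOSL1, the JUN family and JUN, the conditions did not overlap. The two-sided exact permutation test over libraries gave p = 0.2 for each, the smallest that 3 against 2 libraries allow. The family levels were not tested. For the shares, exact p-values of 0.2 became 0.343 after Benjamini-Hochberg adjustment over the 12 shares examined. This test therefore could not reach 0.05 with these libraries. Since all cells of a dish were sequenced together, a change in every cell cannot be told apart from a change in the share of cells that express a gene.

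**Figure D3:**
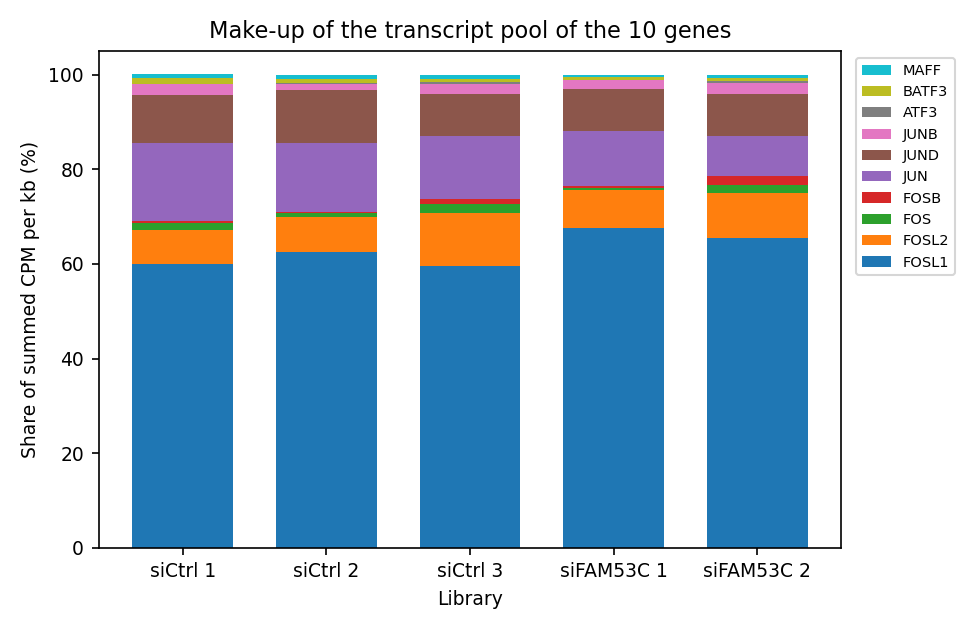
Share of each gene in the summed CPM per kb of the 10 genes (y axis, percent) in each library (x axis). The bottom blue block is FOSL1, 59.6 to 62.6% in siCtrl and 65.5 to 67.5% in siFAM53C, and the purple block is JUN, which was smallest in siFAM53C replicate 2 (8.55%).

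Genes around AP-1 were examined as lists: other bZIP proteins that pair with or compete with AP-1, upstream kinases and the factors they act on, proteins that govern AP-1 turnover, other immediate early genes, and genes known to be driven by AP-1. Of the 129 genes of these lists that were tested, 8 (6.20%) were lower on the edgeR adjusted p and 0 higher, beside 3.47% lower and 0.489% higher of all genes tested. DESeq2 called 13 lower and 0 higher, beside 888 lower and 254 higher of the 13181 genes that it gave an adjusted p. Without siCtrl replicate 1 or 2, each time 2 list genes were lower in edgeR, beside 209 and 180 genes over the whole table. Without siCtrl replicate 3 there were 13, beside 886, so the calls depended on the libraries used. At an unadjusted edgeR p under 0.05, 22 of the 129 were lower (17.1%, beside 10.5% of all genes tested) and 9 higher (6.98%, beside 6.61%). The lists were chosen with earlier results of these data known, so these shares are a description only. The lower ones were 6 bZIP partners, 6 upstream genes, 2 turnover genes, 3 immediate early genes and 5 targets, and the higher ones 5 upstream genes, 1 turnover gene and 4 immediate early genes, SRF being counted both as an upstream and as an immediate early gene.

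Of the upstream genes, all 32 were tested and 3 were lower, ELK1, MEF2A and ELK3, with a list median of 0.046. ELK1, a ternary complex factor that joins SRF on the FOS promoter when ERK phosphorylates it, had 50.2, 45.2 and 43.3 CPM in the siCtrl libraries and 23.8 and 22.9 CPM in the siFAM53C libraries. It fell by 0.99 ± 0.12 (log2 scale, SE; edgeR adjusted p = 0.005642), and the conditions are far apart. ELK3, a related factor that can repress FOS, fell by 0.85 (adjusted p = 0.03019), and MEF2A, which binds the JUN promoter, by 0.80 (adjusted p = 0.006298), in the same edgeR test. Both sides of the library split gave values below 0 for all of these genes (-0.81 and -0.78 for MEF2A). The JNK genes MAPK8 (-0.56, adjusted p = 0.1775) and MAPK9 (-0.45, adjusted p = 0.09551), chosen after their values were seen, did not pass the same edgeR test, and SRF had a log2 fold change of 0.44 (adjusted p = 0.2402).

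Of 34 other bZIP genes, 28 were tested and 3 were lower, with a list median of -0.043. ATF1, a CREB relative that binds CREs, fell from 30.3, 25.4 and 28.3 CPM to 15.5 and 16.3 CPM, with a log2 fold change of -0.81 ± 0.15 (SE; edgeR adjusted p = 0.02465). CEBPG, a dimer partner of ATF4, fell by 0.88 (adjusted p = 0.02872) and ATF6, a sensor of the unfolded protein response, by 0.67 (adjusted p = 0.0213) in the same test. Of 13 turnover genes, all tested, 1 was lower: GSK3B, the kinase that primes JUN for destruction by FBXW7, fell from 117, 120 and 123 CPM to 83.3 and 88.6 CPM (log2 fold change -0.48 ± 0.098, edgeR adjusted p = 0.04027), a call that was lost when only library totals set the scale. FBXW7 itself had a log2 fold change of -0.29 (adjusted p = 0.3831 in that test).

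Of 30 other immediate early genes, 27 were tested and none was called (0 in either direction by edgeR). Taking unadjusted p under 0.05, 3 of the 27 had lower and 4 had higher levels, beside 10.5% lower and 6.61% higher of all genes tested. DESeq2 called 1 lower, beside 888 lower of the 13181 genes that it gave an adjusted p. The smallest p was that of BHLHE40, a transcriptional repressor of the circadian and hypoxic responses, with 40.7, 43.5 and 32.4 CPM in the siCtrl libraries and 54.1 and 57.0 CPM in the siFAM53C libraries (log2 fold change 0.51, edgeR adjusted p = 0.1115). EGR1, chosen after its values were seen as the standard companion of FOS, had a log2 fold change of -0.57 (SE 0.42; edgeR adjusted p = 0.5736). It had 15.7, 10.2 and 24.2 CPM in the siCtrl libraries against 7.63 and 14.9 CPM in the siFAM53C libraries, which overlap.

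Of 36 genes known to be driven by AP-1, 30 were tested, of which 8 were above 0, with a median of -0.13. PLAUR, the urokinase receptor, was the gene called: it had 232, 229 and 204 CPM in the siCtrl libraries and 127 and 125 CPM in the siFAM53C libraries, and fell by 0.82 ± 0.11 (log2 scale, SE; edgeR adjusted p = 0.007276). At an unadjusted p under 0.05, 5 of these 30 were lower and 0 higher, beside 10.5% and 6.61% of all genes tested. They include, named after their values were seen, the EGF receptor ligands AREG (-1.49) and HBEGF (-0.35) and the uridine phosphorylase UPP1 (-0.34). Their edgeR adjusted p-values were 0.09736, 0.2488 and 0.183, so none of them passed the threshold. AREG had few counts, from 28 to 132 per library.

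**Figure D4:**
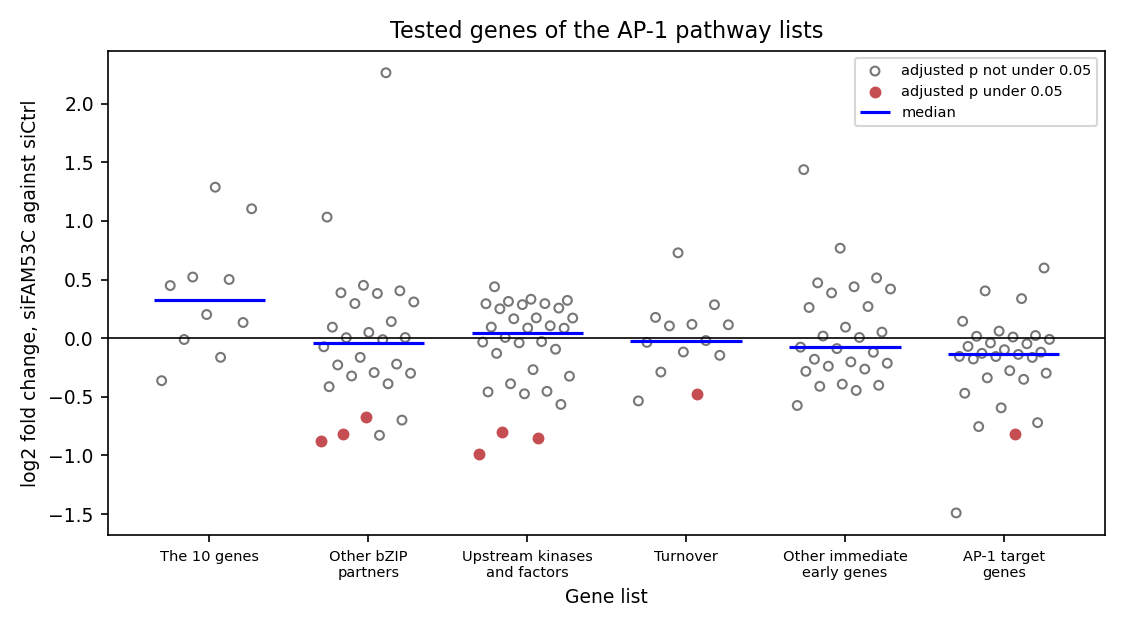
Log2 fold change of siFAM53C against siCtrl for each tested gene of the 6 lists, with filled red points for an adjusted p under 0.05 from edgeR's quasi-likelihood test and a blue line at each list's median. The 10 genes of the first column have a median of 0.33 and no filled point, and the 8 filled points of the other lists all lie below 0.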

How the data were processed

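PolyA RNA of 5 RPE-1 libraries was sequenced, and raw counts per gene were deposited, 19260124 to 25615415 per library. The authors used CutAdapt 2.10 for trimming, HISAT2 for alignment to hg38 (library type reverse-stranded) and featureCounts for counts, which were not normalized. The annotation release and the strand setting of the counting are not given in the sources used here. Symbols, positions and exon lengths came from GENCODE release 44 on GRCh38 (56105 of 64252 identifiers matched), and promoters from RefSeq (GRCh38.p14).

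The model was edgeR's robust quasi-likelihood fit (version 4.0.16, under R 4.3.3) with condition as its only term, on TMM-scaled libraries and on genes kept by filterByExpr at a count of 10 and a total of 15, with Benjamini-Hochberg adjustment over all genes tested and a threshold of 0.05. Log2 CPM used a prior count of 2. DESeq2 1.42.0, limma-voom (limma 3.58.1), other scaling, other filters, replicate blocks, a term for the library split, a non-robust fit (added after seeing the data) and each library left out were the alternatives. The tools were tested on simulated counts. The members, lists and tests were chosen with earlier results of these data known. Genes named were the members, FAM53C, up to 5 called genes of each list per direction or, with none called, the one with the smallest p, and the 3 genes nearest to the most variable member. MAPK8, MAPK9, SRF, FBXW7, EGR1, AREG, HBEGF and UPP1 and the marker genes fall outside this rule, and the former were chosen after their values were seen. The values of 1 gene of the target list are not reported here.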

Additional observations from a re-analysis of the deposited data

How the results depend on the processing

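The direction of FOSL1, FOSL2, JUNB, JUND and ATF3 was above 0 in all 15 alternatives and that of BATF3 below 0. FOS was above 0 in 10 of 15, FOSB in 14, JUN in 2 and MAFF in 5, and with library totals MAFF was at 0.061. The cause of the changes below was not tested.

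With the main settings 533 genes were lower and 75 higher, 0 of the 10 members were called and 8 genes of the other lists were lower and 0 higher. DESeq2's Wald test gave 888 and 254 genes, 1 member higher (FOSL1) and 13 list genes lower. Library totals gave 415 lower and 121 higher genes and 1 member higher (FOSL1). No filter on low counts gave 961 and 375 genes, 3 members higher (FOSL1, FOSL2 and ATF3) and 15 list genes lower and 4 higher. The term for the library split gave 1636 and 1037 genes, 2 members higher (FOSL1 and FOSL2), and 27 list genes lower and 13 higher.

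The replicate numbers of the titles and of the column names differ for 1 siFAM53C library and share no stated culture or day. Deviations from the condition means correlated at 0.169 and -0.285 for the pairs by title, and at 0.169 and 0.371 for those by column name. The deviations of the siFAM53C libraries are exact opposites, so each correlation of siFAM53C replicate 1 recurs with reversed sign for siFAM53C replicate 2. These values are therefore not independent of each other. A replicate block by titles gave 856 genes lower and 355 higher, 2 members higher (FOSL1 and FOSL2) and 3 list genes higher. A replicate block by column names gave 1350 and 642 genes, the same 2 members, and 25 list genes lower and 8 higher.

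With 1 library left out, lower genes numbered 157 to 886 and higher genes 6 to 414, the most without siCtrl replicate 3. Members called higher ranged from 0 to 2 (2 without siCtrl replicate 3), list genes lower from 0 to 13, with 0 without either siFAM53C library, and list genes higher from 0 to 3. The lone siFAM53C library is then assumed to vary like the controls. The JUN family share differed in the same direction throughout, by less than the spread between replicates from its main value of -5.72 percentage points. Precision did not follow the counts alone: the SE was 0.51 for ATF3, with 40 to 238 counts, and 1.09 for FOSB, with 125 to 1520.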
